A study of Mus musculus with 26 samples.

Results

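The natriuretic peptide receptors and cyclic GMP (cGMP) kinases are followed here as 7 genes: the ligand genes Nppb and Nppc, the receptor genes Npr1, Npr2 and Npr3, and the kinase genes Prkg1 and Prkg2. They were found by symbol among the 26264 gene symbols of the count table, and all 7 were present. Npr1 was chosen by its higher counts in the Kdm2b knockout groups, so its values in every comparison with a knockout group are given as a description, with no test. The other 6 were taken as its relatives in the pathway. All 7 genes passed the filter on low counts, which left 16566 genes to test, but Nppc passed it only through the 3 libraries of 1 group.

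RNA was sequenced from osteoblasts, which build bone matrix, taken from mouse femurs and kept in culture, in 18 libraries that formed 6 groups of 3. YOUNG and OLD were C57BL/6J mice aged 3 and 18 months. The knockout mice, also C57BL/6J, carried Kdm2b fl/fl with Ocn-cre, a recombinase driven by the promoter of the osteoblast gene osteocalcin, and the fluorescent reporter Ai14. Their cells, CKO-YOUNG and CKO-OLD, lacked the CxxC domain of Kdm2b and were screened after isolation, per the labels, which do not say how. CON-YOUNG was the control with Ocn-cre and Ai14. CON-OLD-iBP was named in its titles as old control cells with iBP; the meaning, dose and time of iBP are not in the labels. The months are given for YOUNG and OLD alone. No old Ocn-cre Ai14 group without iBP is analysed here, so CKO-OLD was compared with OLD, and the CxxC deletion cannot be told apart from the driver and reporter in that comparison. In CON-OLD-iBP against CKO-OLD, iBP cannot be told apart from the CxxC deletion. In CON-OLD-iBP against OLD, it cannot be told apart from other traits of the control cells, such as the driver and reporter of CON-YOUNG. The OLD, CKO-OLD and CON-YOUNG libraries each enter several comparisons, which are therefore not independent of each other.

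Natriuretic peptides are secreted ligands. The receptors encoded by Npr1 and Npr2 are guanylyl cyclases that make cGMP inside the cell when a ligand binds, whereas the receptor encoded by Npr3 has no cyclase domain and clears the peptides from around the cell. The cGMP in turn activates the protein kinases encoded by Prkg1 and Prkg2. The peptide encoded by Nppc signals through Npr2 and is known as a driver of long bone growth, with Prkg2 acting downstream in growth plate cartilage, and osteoblasts also use cGMP kinases. Kdm2b brings the Polycomb complex PRC1.1 to unmethylated CpG-rich DNA through its CxxC domain.

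In these cells Npr1 counts were near the bottom of the measurable range in all 12 libraries without the Kdm2b deletion and clearly above it in all 6 with it. Nppc was at or near 0 counts in every group except CON-OLD-iBP. Npr2, Npr3, Prkg1 and Prkg2 had reads in every library, and their levels varied between libraries of 1 group as well as between groups. Levels are in CPM, the usual count unit that corrects for depth, computed from the deposited counts with each library's total scaled by TMM, with mean ± SD taken across a group's 3 libraries. No gene lengths were used, so levels are compared between libraries and never between genes.

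Total counts per library ran from 46272076 in CKO-OLD 1 to 77698781 in YOUNG 1, so that 1 count was worth 0.0127 to 0.0203 CPM. A count of 0 allows a level of up to 3 counts, which is 0.0381 to 0.0608 CPM depending on the library, and this limit covers counting error only. The libraries fell into sets that cut across the groups: 10 libraries had Malat1 above 0.05% of the counts (YOUNG 3, OLD 2, CKO-YOUNG 3, CON-YOUNG 3, and every library of CON-OLD-iBP and of CKO-OLD; set 3), and 8 had less, namely YOUNG 1 and 2 with OLD 1 and 3 (set 1) and replicates 1 and 2 of CON-YOUNG and CKO-YOUNG (set 2). All 10 osteoblast markers were detected in every group, and their summed level ran from 12650 CPM in CON-OLD-iBP 3 to 60000 CPM in CON-YOUNG 1. Kdm2b, the targeted gene, was at 45.8 ± 16.1 CPM in CKO-YOUNG, 40.5 ± 17.9 in CON-YOUNG, 36.3 ± 18.2 in CKO-OLD and 28.2 ± 7.89 in OLD. Losing a domain need not alter the count of a gene, so these values say nothing on whether the deletion was made. No label says that replicates are separate animals or cultures, so p-values measure only how far these samples spread, and that spread may be technical.

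The ligand genes come first. The stretch of 250 bases before the RefSeq start of each (assembly GRCm38.p6) is shown because the ligands differ in CpG content, the DNA feature that the deleted CxxC domain binds; CG pairs and the sequence TATAAA are in capitals. Nppb lies on the plus strand at chr4:147985650-147985899 and Nppc on the minus strand at chr1:86670574-86670823.
Nppb: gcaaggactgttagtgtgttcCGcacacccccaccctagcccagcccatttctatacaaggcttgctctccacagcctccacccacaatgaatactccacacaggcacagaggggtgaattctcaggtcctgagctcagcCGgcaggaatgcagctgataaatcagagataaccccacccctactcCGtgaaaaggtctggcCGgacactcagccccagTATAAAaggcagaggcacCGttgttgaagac
Nppc: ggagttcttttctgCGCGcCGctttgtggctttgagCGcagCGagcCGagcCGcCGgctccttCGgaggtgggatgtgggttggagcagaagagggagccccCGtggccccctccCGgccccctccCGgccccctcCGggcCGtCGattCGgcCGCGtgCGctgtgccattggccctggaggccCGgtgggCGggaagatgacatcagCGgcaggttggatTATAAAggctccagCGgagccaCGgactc

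Over the full 300-base window of the RefSeq promoter table, which runs from 250 bases before to 50 after the start, Nppc had 29 CG pairs and Nppb had 7. The median over 32841 windows was 7, and 12.9% of them held at least as many as Nppc. Both ligand windows had TATAAA, which was searched on both strands and was present in 13.6% of all windows; its first base lay 31 bases before the start in Nppb and 29 before it in Nppc.

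Nppc encodes C-type natriuretic peptide. It had 15, 38 and 50 counts in the 3 CON-OLD-iBP libraries, or 0.303, 0.697 and 1.01 CPM. It had 0 counts in all libraries of OLD, CON-YOUNG and CKO-YOUNG, 4 counts in YOUNG 3 with 0 in the other 2 YOUNG libraries, and 2 counts in CKO-OLD 1 with 0 in the other 2 CKO-OLD libraries. The CON-OLD-iBP libraries therefore stood above all 15 others, and since Nppc passed the filter only through them, this separation is a description that the filter fixed. Against a floor of 3 counts over the OLD group, Nppc was at least 43.1-fold higher in CON-OLD-iBP than in OLD (n = 3 libraries a group). No test of CON-OLD-iBP against another group is read for Nppc.

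Nppb encodes B-type natriuretic peptide, a ligand of the receptor encoded by Npr1. Its counts were 278, 66 and 100 in CON-OLD-iBP, or 5.62, 1.21 and 2.03 CPM. In OLD the levels were 0.522, 0.301 and 0.134 CPM, and in YOUNG they were 0.876, 0.29 and 1.49. The CON-OLD-iBP libraries lay above every OLD library but overlapped with YOUNG, where YOUNG 3 was above CON-OLD-iBP 2. In the Ocn-cre young groups Nppb was detected mainly in 1 library each, at 0.538 CPM in CON-YOUNG 3 and 0.481 in CKO-YOUNG 3, with 0 to 3 counts in the others. CKO-OLD had 0.422, 0 and 0.0714 CPM. In CON-YOUNG against YOUNG the log2 difference was -2.29 (SE 1.72, adjusted p = 0.448); without CON-YOUNG 3, which leaves 0 counts in CON-YOUNG, the adjusted p by edgeR was 0.0422 in a fit that called 17.1% of all genes. The log2 difference between CON-OLD-iBP and OLD was 3.20 with a standard error (SE) of 1.76 and did not pass edgeR's quasi-likelihood F test with Benjamini-Hochberg adjustment over all genes (adjusted p = 0.285), nor did that between CON-OLD-iBP and CKO-OLD, which was 4.16 (SE 1.85, adjusted p = 0.229). Against the 1 OLD library of set 3, at 0.301 CPM, the difference of CON-OLD-iBP was 3.29 (adjusted p = 0.502).

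Nppa, the gene next to Nppb and the source of atrial natriuretic peptide, is in the list of pathway genes below. It was at 1.94, 0.33 and 0.304 CPM in CON-OLD-iBP and at 0.174, 0.212 and 0 in OLD. The groups did not overlap, and the log2 difference of 2.72 (SE 1.70) did not pass the test (adjusted p = 0.35). CON-OLD-iBP 1 was the highest of the 18 libraries for both Nppa and Nppb and had the second highest summed level of chondrocyte markers, 11940 CPM. The part of these cells in the ligand values was not tested.

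**Figure D1:**
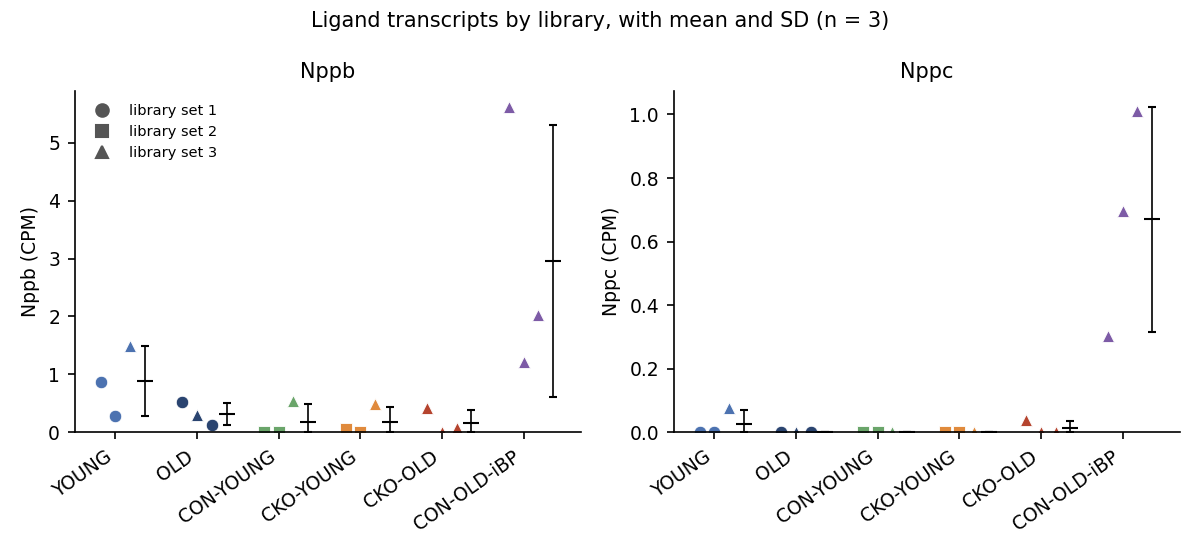
Levels of the ligand transcripts Nppb and Nppc in CPM (vertical axes) in each of the 18 RNA libraries by group, with the mean and SD of 3 libraries; the marker shape gives the library set. The 3 CON-OLD-iBP libraries had 0.303 to 1.01 CPM of Nppc, and no other library was above 0.0772.

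Npr1 encodes the guanylyl cyclase receptor for atrial and B-type natriuretic peptides. The bases before its RefSeq start on the minus strand, at chr3:90465867-90466116 (GRCm38.p6), are shown for their CpG content, with CG pairs in capitals.
Npr1: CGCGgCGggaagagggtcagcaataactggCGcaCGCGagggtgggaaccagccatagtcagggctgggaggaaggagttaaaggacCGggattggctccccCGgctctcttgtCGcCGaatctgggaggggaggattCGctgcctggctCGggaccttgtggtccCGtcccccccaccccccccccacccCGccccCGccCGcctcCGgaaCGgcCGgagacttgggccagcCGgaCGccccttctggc

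The 300-base window of Npr1 had 26 CG pairs, 0.716 of the number that its C and G content would give, and 16.9% of all windows had at least as many. Among the other receptors, Npr2 had 13 and Npr3 had 6, and Prkg1 had 10 and 20 at its 2 listed starts. The GC box sequence GGGCGG, counted on both strands, occurred at 2 places in the Npr1 window and at least once in 35.7% of all windows. The cyclic AMP response element TGACGTCA was in no window of a member and in 1.79% of all windows. No entry was found for Prkg2. These matches describe the sequence and are not measurements of binding.

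**Figure D2:**
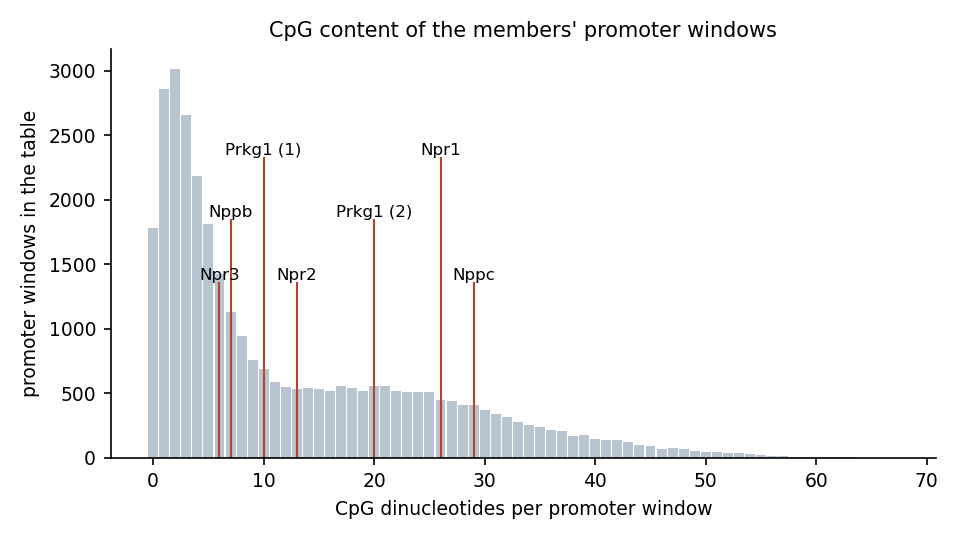
Number of promoter windows (vertical axis) by CG pairs per window of 300 bases (horizontal axis) over 32841 RefSeq windows, with the 7 windows of 6 members marked by lines. Nppc with 29 and Npr1 with 26 CG pairs lie far to the right of the median of 7, and Npr3 with 6 lies just below it.

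In YOUNG, Npr1 was at 0.343, 0.116 and 0.193 CPM, and in OLD at 0.362, 0.283 and 0.298. In CON-YOUNG it was at 0.568, 0.423 and 0.466 CPM, and in CON-OLD-iBP at 0.101, 0.697 and 0. These 12 libraries held at most 38 counts of Npr1 each. In CKO-YOUNG it was at 18.1, 17.9 and 29.4 CPM, which are 1073, 1015 and 2013 counts. In CKO-OLD it was at 3.46, 4.52 and 6.84 CPM, which are 172, 258 and 383 counts. The lowest of the 6 knockout libraries was 4.96-fold above the highest of the 12 others.

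**Figure D3:**
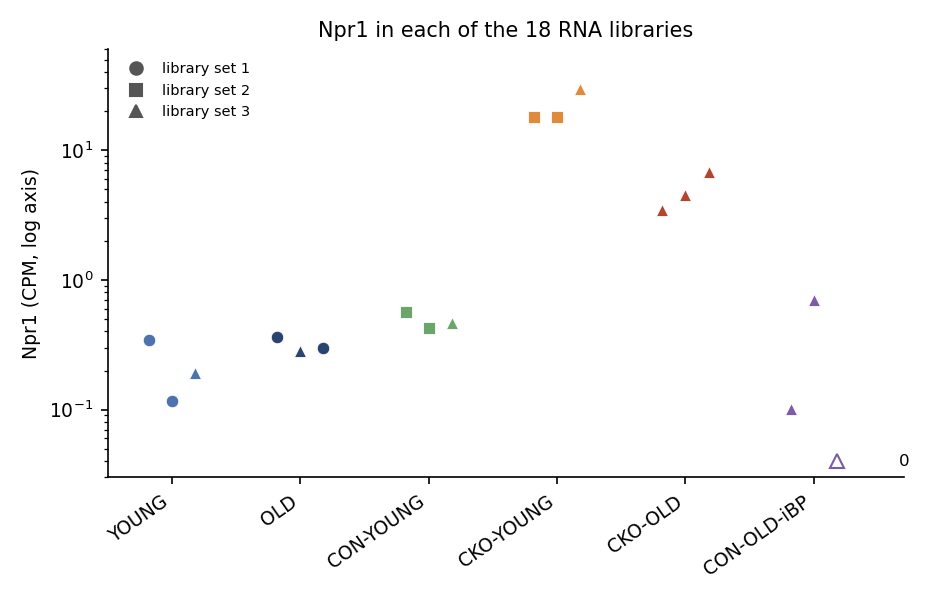
Level of Npr1 in CPM (vertical log axis) in each RNA library by group; the open marker stands for the CON-OLD-iBP library with 0 counts, and the marker shape gives the library set. The 6 knockout libraries lie between 3.46 and 29.4 CPM, and the 12 others at or below 0.697.

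By group mean, Npr1 was at 21.8 ± 6.54 CPM in CKO-YOUNG against 0.486 ± 0.0744 in CON-YOUNG (SD, n = 3), a log2 difference of 5.48 (SE 0.94). In CKO-OLD it was at 4.94 ± 1.73 CPM against 0.315 ± 0.042 in OLD, a log2 difference of 3.96 (SE 0.88). Since these differences selected the gene, they have no test here; 0.127% of all genes were called in CKO-YOUNG against CON-YOUNG and 0.00604% in CKO-OLD against OLD. Within library set 2 the difference between CKO-YOUNG and CON-YOUNG was 5.18, and within set 3, which held 1 library of each group, it was 5.97. CON-OLD-iBP, at 0.266 ± 0.377 CPM, had a mean near that of OLD (log2 difference -0.23, SE 0.83, adjusted p = 0.901 by edgeR). Its libraries, at 0.101, 0.697 and 0 CPM, lay below and above the 0.283 to 0.362 CPM of OLD. Without CON-OLD-iBP 2 the difference from OLD was -2.63 (adjusted p = 0.0791 by edgeR). Against CKO-OLD the log2 difference of CON-OLD-iBP was -4.19 (SE 0.90), also without a test, and -6.58 without CON-OLD-iBP 2.

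The order of the group means of Npr1 was CKO-YOUNG, CKO-OLD, CON-YOUNG, OLD, CON-OLD-iBP and YOUNG. The 3 lowest groups overlapped with each other. CON-YOUNG overlapped with CON-OLD-iBP and lay above OLD and YOUNG. It had no overlap with YOUNG, like 23.1% of all genes, and the difference of 1.14 on the log2 scale (SE 0.83) did not pass the test (adjusted p = 0.428). OLD against YOUNG gave 0.52 (SE 0.83, adjusted p = 1). The knockout groups did not overlap, like 31.5% of all genes, with CKO-OLD 4.41-fold below CKO-YOUNG. Their log2 difference of -2.14 (SE 0.80) is also given without a test, since Npr1 was chosen by its higher counts in these groups. It was -2.12 with DESeq2 and -2.16 with limma-voom. An edgeR fit of these 6 libraries alone gave -2.14, with 4.87% of all genes called. With a replicate block that fit gave -2.16, with 1.52% of all genes called.

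Npr1 is also made by endothelial and vascular smooth muscle cells, so the markers of these cells are given beside it. The summed level of 12 endothelial markers was 10.89 to 11.89 CPM in CKO-YOUNG against 5.185 to 7.266 in CON-YOUNG. It was 12.79 to 18.44 CPM in CKO-OLD against 7.623 to 17.64 in OLD, and it reached 26.09 and 28.98 in YOUNG 1 and 2, whose Npr1 was 0.343 and 0.116 CPM. Of the 12, 10 had a higher mean in CKO-YOUNG than in CON-YOUNG, 6 in CKO-OLD than in OLD, and 5 in both, namely Egfl7, Flt1, Esam, Tek and Emcn. Egfl7 was at 5.13 against 3.03 CPM in young and 4.97 against 2.96 in old cells, and Flt1 at 1.74 against 0.522 and 2.77 against 0.682. Pecam1, Cdh5 and Tek were each at most 1.25 CPM in any library, Tie1 and Cldn5 at most 0.248, and the highest value of the list was 14.5, for Kdr. In CKO-YOUNG 0 of the 12 were at 0 in all libraries; Cldn5 and Tie1 were in CKO-OLD, Tek in CON-YOUNG, and Emcn and Tie1 in OLD. The summed level of 12 smooth muscle and pericyte markers was 6085 to 7823 CPM in CKO-YOUNG against 2795 to 7693 in CON-YOUNG. In CKO-OLD it was 1626 to 2174 CPM against 2098 to 2546 in OLD. Most of the sum was Acta2 and Tagln. Of these 12 markers, 10 had a higher mean in CKO-YOUNG than in CON-YOUNG, 6 in CKO-OLD than in OLD, and 4 in both, namely Mcam, Notch3, Des and Rgs5. Mcam was at 82.9 against 22.8 CPM in young and at 19.3 against 3.21 in old cells. The part of either cell type in the Npr1 values was not tested. In such bulk samples, fewer cells of a type and less RNA per cell cannot be told apart.

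The genes on either side of Npr1 come from a RefSeq table of assembly GRCm38, from which only the order of genes was taken, and were chosen after the data were seen. No other gene in that table overlapped Npr1. Ints3 and Ilf2, its nearest neighbours, were at 78.4 and 56.2 CPM in CKO-YOUNG and at 88.3 and 59 in CON-YOUNG, with adjusted p = 1 for both. Slc27a3, a fatty acid transport protein gene beyond Ints3, was at 36.6 CPM in CKO-YOUNG and 9.11 in CON-YOUNG and did not pass the test (log2 difference 2.01, adjusted p = 0.268). In CKO-OLD it was at 21.5 CPM and in OLD at 10 (1.10, adjusted p = 0.601).

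The 5 genes whose log2 CPM followed Npr1 most closely over the 18 libraries were Ccdc85c (Pearson r = 0.939), Efna2 (0.935), Pabpc1l2a (0.93), Lhx2 (0.923) and Pabpc1l2b (0.919). The libraries of a group share genotype and, in part, library set, and the knockout libraries stand apart for Npr1, so these values describe the likeness and carry no test. Efna2, an ephrin ligand gene, was at 5.88 to 21.6 CPM in the 6 knockout libraries and at 0.872 to 6.53 in the others. Lhx2, a LIM homeobox transcription factor gene, was at 4.99 to 28.6 CPM in the knockout libraries and at most 3.96 in the others, the same split without overlap as Npr1. Ccdc85c (at least 8.59 against at most 7.24 CPM), Pabpc1l2a (2.92 against 1.83) and Pabpc1l2b (2.73 against 1.7) were also split without overlap. The share of all genes split in this way was not counted. Pabpc1l2a and Pabpc1l2b are near-identical copies whose reads the counting could have split.

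Npr2 encodes the guanylyl cyclase receptor for C-type natriuretic peptide. Its level ran from 74.2 CPM in CKO-YOUNG 2 to 215 CPM in CKO-OLD 3. In YOUNG it was at 74.9, 95 and 192 CPM, in CON-YOUNG at 81.5, 79.9 and 213, and in CKO-YOUNG at 80.1, 74.2 and 135. OLD had 80.2, 128 and 80.2 CPM, CKO-OLD 153, 115 and 215, and CON-OLD-iBP 214, 133 and 125. The 8 libraries of sets 1 and 2 held 74.2 to 95 CPM and the 10 of set 3 held 115 to 215, with no overlap. The share of all genes split by set in this way was not counted, so this split is not read as particular to Npr2. The 4 highest libraries, YOUNG 3, CON-YOUNG 3, CKO-OLD 3 and CON-OLD-iBP 1 (192 to 215 CPM), were also the 4 with the highest summed level of chondrocyte markers, 16460, 4704, 10430 and 11940 CPM, against at most 1426 in the other libraries. The part of chondrocytes and of the library sets in the Npr2 level was not tested.

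None of the 8 direct comparisons of groups passed the test for Npr2. The log2 difference was -0.37 in CKO-YOUNG against CON-YOUNG (SE 0.44, adjusted p = 1) and 0.75 in CKO-OLD against OLD (SE 0.44, adjusted p = 0.683). All CKO-OLD libraries are of set 3, as is 1 of the 3 OLD libraries. Spag8 overlaps Npr2 in the gene table, and the sources used here do not say whether counting used strand; Spag8 itself was at no more than 0.14 CPM in any group mean of the knockout and iBP comparisons. The 2 genes most like Npr2 over the 18 libraries were the integrin gene Itga3 (r = 0.949) and the zinc transporter gene Slc39a13 (0.929).

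Npr3 encodes the clearance receptor, which takes up natriuretic peptides. It was at 60.4, 68.6 and 80.7 CPM in CKO-OLD, at 27, 27.4 and 30.2 in OLD and at 28.2, 29.2 and 34.1 in CON-OLD-iBP. Every CKO-OLD library was above every library of the other 2 groups. The log2 difference between CKO-OLD and OLD was 1.31 (SE 0.39), the largest for Npr3 in any direct comparison, and did not pass the test (adjusted p = 0.411, 0.0719 to 1 over the alternatives), and 17.4% of all genes were likewise without overlap there. Against OLD 2 alone, the OLD library of set 3, it was 1.35 (adjusted p = 0.379). That between CON-OLD-iBP and CKO-OLD was -1.20 (SE 0.39, adjusted p = 0.114).

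In the young groups Npr3 was at 31.2, 17.2 and 24.1 CPM in YOUNG, 37, 30.3 and 94.9 in CON-YOUNG and 37.7, 26.1 and 65.2 in CKO-YOUNG. The third libraries of CON-YOUNG and CKO-YOUNG, both of set 3, were the high ones, so a level as high as that of CKO-OLD was also found in a control with Ocn-cre. CKO-YOUNG against CON-YOUNG gave a log2 difference of -0.33 (SE 0.38, adjusted p = 1), and without CON-YOUNG 3 it was 0.353. CON-YOUNG against YOUNG gave 1.16 (SE 0.39, adjusted p = 0.0912), and 0.478 without CON-YOUNG 3. The knockout difference was larger in old than in young cells by 1.64 on the log2 scale (SE 0.54), which did not pass the test of that difference (adjusted p = 0.963), and it was 0.957 without CON-YOUNG 3. Top3b (r = 0.834) and Slc25a27 (0.813) were most like Npr3 over the 18 libraries.

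**Figure D4:**
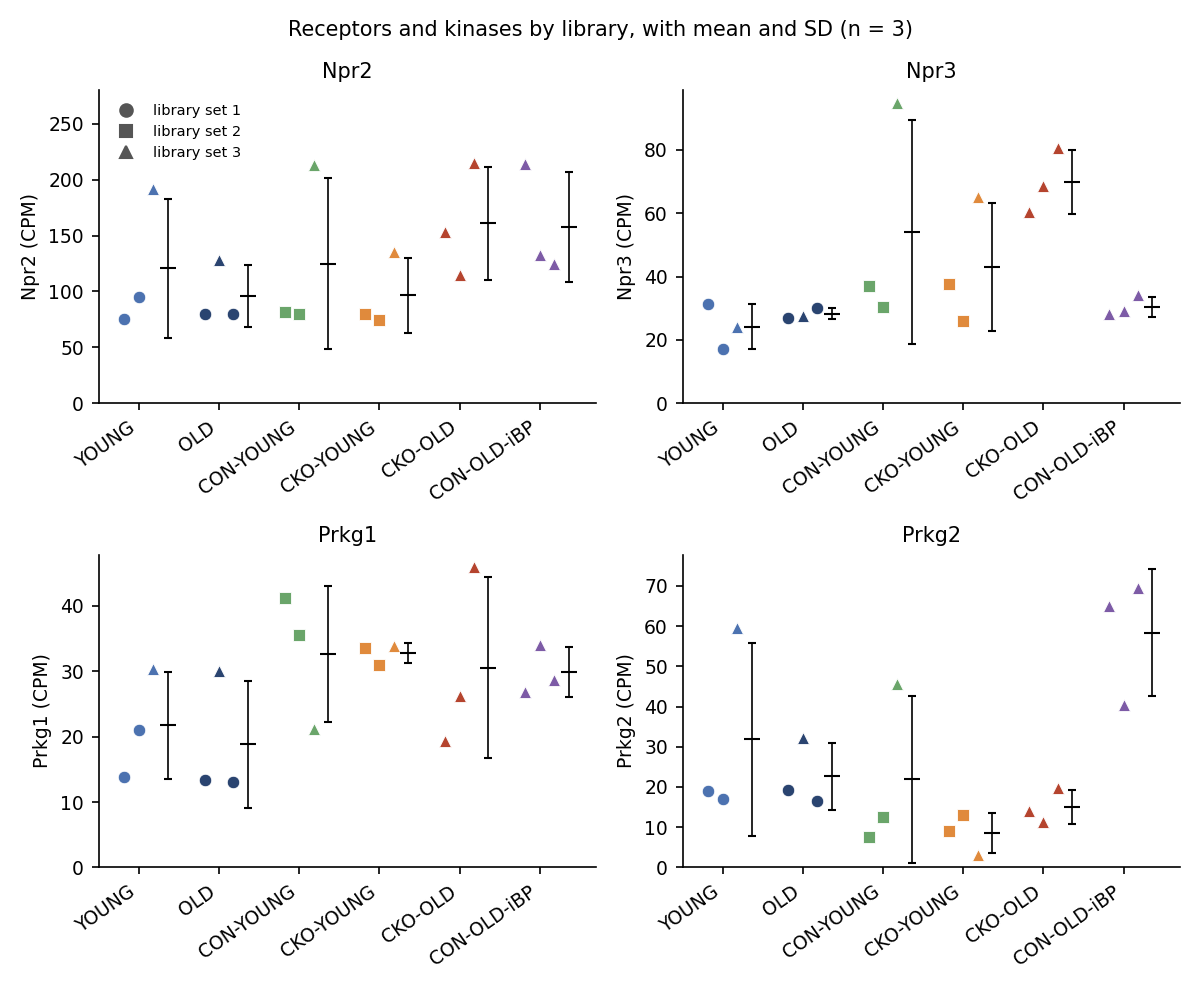
Levels of Npr2, Npr3, Prkg1 and Prkg2 in CPM (vertical axes) in each RNA library by group, with the mean and SD of 3 libraries; the marker shape gives the library set. Npr3 in CKO-OLD (60.4 to 80.7 CPM) lies above OLD and CON-OLD-iBP, Prkg2 in CON-OLD-iBP (40.3 to 69.6 CPM) lies above OLD and CKO-OLD, and Npr2 is higher in libraries of set 3.

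Prkg1 encodes cGMP-dependent protein kinase I, the main cGMP kinase of smooth muscle. In YOUNG it was at 13.9, 21 and 30.3 CPM, in OLD at 13.4, 30.1 and 13.1, and in CON-OLD-iBP at 26.8, 34.1 and 28.7. In CON-YOUNG it was at 41.3, 35.5 and 21.2 CPM, in CKO-YOUNG at 33.5, 31 and 33.9, and in CKO-OLD at 19.3, 26.3 and 46. The groups overlapped in all 8 direct comparisons. The knockout differences were 0.01 in young cells (SE 0.38, adjusted p = 1) and 0.69 in old cells (SE 0.38, adjusted p = 0.654). Map4k5 (r = 0.9) and Crkl (0.896) were most like Prkg1. Cstf2t overlaps Prkg1 in the gene table, and its level was 43.8 to 58.1 CPM over the group means compared.

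Prkg2 encodes cGMP-dependent protein kinase II, the kinase downstream of Npr2 in growth plate cartilage. It was at 65.1, 40.3 and 69.6 CPM in CON-OLD-iBP, at 19.3, 32.1 and 16.4 in OLD and at 14.1, 11.3 and 19.7 in CKO-OLD. All 3 CON-OLD-iBP libraries were above all libraries of OLD and CKO-OLD. The log2 difference was 1.37 against OLD (SE 0.66, adjusted p = 0.226) and 1.96 against CKO-OLD (SE 0.67, adjusted p = 0.135), and neither passed the test. Against OLD 2 alone, the OLD library of set 3 and the highest of OLD, it was 0.86 (adjusted p = 0.348).

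CON-OLD-iBP and CKO-OLD are the only groups whose libraries are all of set 3, and within that set Prkg2 passed edgeR's test between them (adjusted p = 0.00129), as did Npr3 (adjusted p = 0.00439), in a fit in which 18.7% of all genes passed. Both also passed in a fit with a term for library set, in which 12.3% of all genes passed (adjusted p = 0.0487 for Prkg2 and 0.00613 for Npr3). DESeq2 called both as well (0.0293 and 0.0409), with 9.0% of all genes called. A fit of these 6 libraries alone gave adjusted p = 0.0199 and 0.0203, with 4.44% of all genes called, and with a replicate block 0.0159 and 0.0267, with 4.24% called. The direction was the same in each of these fits, with Prkg2 higher and Npr3 lower in the CON-OLD-iBP group. The summed level of osteoblast markers was 12650 to 28280 CPM in CON-OLD-iBP and 23740 to 35790 in CKO-OLD. That of macrophage markers was 518 to 908.4 and 1292 to 5592, and that of chondrocyte markers 816.1 to 11940 and 410.4 to 10430. The part of these cells in the differences was not tested.

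In the young groups Prkg2 was at 19, 17 and 59.5 CPM in YOUNG, 7.45, 12.6 and 45.7 in CON-YOUNG and 9.08, 13.1 and 3.17 in CKO-YOUNG. The third library was the high one in YOUNG and CON-YOUNG and the low one in CKO-YOUNG, where it was the lowest of all 18. Summed chondrocyte markers were 16460 CPM in YOUNG 3, 4704 in CON-YOUNG 3 and 504.2 in CKO-YOUNG 3. In CKO-OLD 3, with 19.7 CPM of Prkg2, they were 10430. The part of chondrocytes in the Prkg2 level was not tested. CKO-YOUNG against CON-YOUNG gave a log2 difference of -1.37 (SE 0.66, adjusted p = 0.924), and -0.248 without CON-YOUNG 3. Within set 3, with 1 library a group, it was -3.85 (adjusted p = 0.00368), where 6.72% of all genes passed, and within set 2, with 2 libraries a group, it was 0.145 (adjusted p = 1), where 0.459% passed. The within-set fits assume that a lone library varies like those of the other groups. Over both ages the knockout difference was -0.98 (SE 0.46, adjusted p = 0.598), and within set 3 it was -2.47 (adjusted p = 0.00264), where 6.58% of all genes passed. CKO-OLD against CKO-YOUNG gave 0.83 (SE 0.65, adjusted p = 0.447), and 2.25 within set 3 (adjusted p = 0.0174), where 5.38% passed. Map2k3 (r = 0.959), a kinase of the p38 pathway, and Pacsin2 (0.95) were most like Prkg2 over the 18 libraries.

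**Figure D5:**
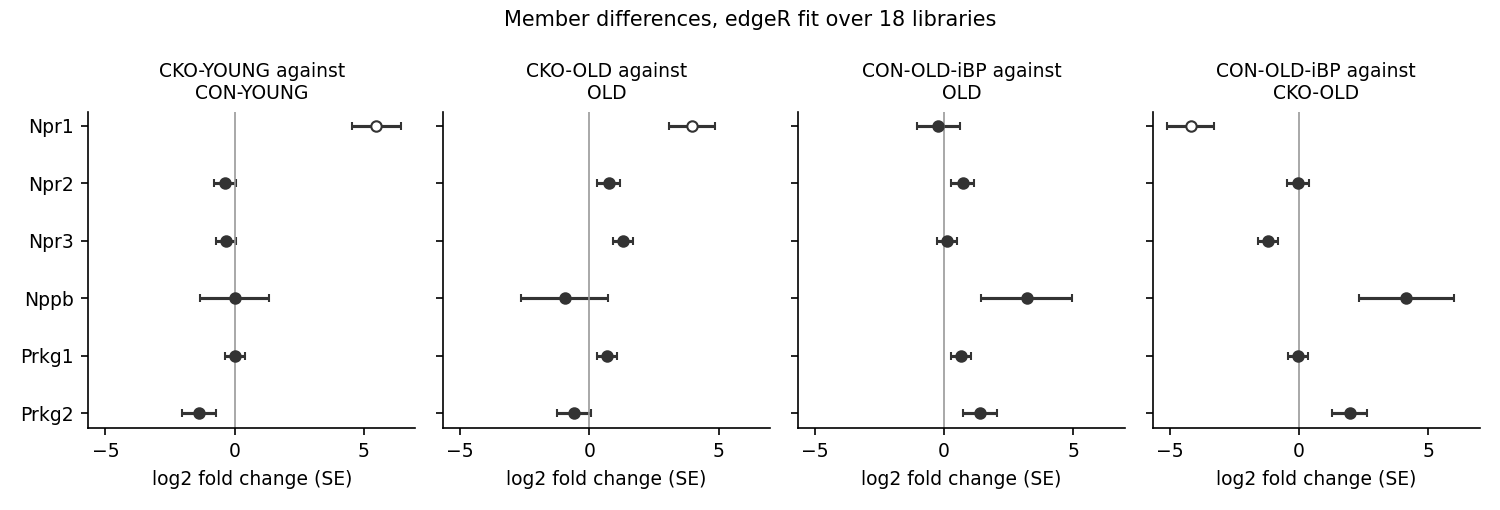
Log2 differences with SE (horizontal axes) of 6 members in 4 comparisons, from the edgeR fit over 18 libraries; Nppc is left out because it is at 0 counts in whole groups. Open points mark Npr1 where its choice used the comparison. Of the other 5 drawn, Prkg2 lies farthest from 0 in CKO-YOUNG against CON-YOUNG, at -1.37, and Npr3 in CKO-OLD against OLD, at 1.31.

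Counted over the members, with Nppc left out and Npr1 left out where a knockout group entered, edgeR called 0 members in each of the 9 comparisons. Nppc passed the filter only through CON-OLD-iBP and had at most 4 counts in any other library. In CKO-YOUNG against CON-YOUNG, 0 of 5 were called, against 0.127% of all genes. There 0 had an unadjusted p under 0.05, against 5.48% of all genes. DESeq2 and limma-voom also called 0, against 230 of 16113 and 65 of 16566 genes. In CKO-OLD against OLD, 0 of 5 were called against 0.00604% of all genes. Of these 5, 1 had an unadjusted p under 0.05 (Npr3), against 8.16% of all genes. DESeq2 called 0 of them, against 181 of 16434 genes, and limma-voom 0, against 1 of 16566. Over both ages, 0 of 5 were called against 0.531%, with 0 under the unadjusted level, against 8.38%. DESeq2 called 0 there, against 412 of 16434 genes, and limma-voom 0, against 160 of 16566. The difference of the knockout effect between ages gave 0 of 5 against 0.0% of all genes. There 1 was under the unadjusted level (Npr3), against 4.81% of all genes. DESeq2 called 0, against 48 of 16434 genes, and limma-voom 0, against 0 of 16566. The middle value of the 5 log2 differences was -0.33 (Npr3) in young and 0.69 (Prkg1) in old cells. The medians over all genes were -0.01 and -0.015.

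In OLD against YOUNG, edgeR called 0 of 6 members against 0.0% of all genes. There 0 were under the unadjusted level, against 3.34% of all genes. DESeq2 and limma-voom called 0, against 41 of 16434 and 0 of 16566 genes. In CON-OLD-iBP against OLD Nppc was left out, since the filter fixed its outcome, and edgeR called 0 of the other 6 against 0.0241% of all genes. Of these 6, 0 were under the unadjusted level, against 23.4% of all genes, DESeq2 called 0 against 13.6%, and limma-voom called 0 against 0.278%. In that comparison 2 of the 6, Nppb and Prkg2, did not overlap between the groups, like 30.2% of all genes. In CON-OLD-iBP against CKO-OLD, with Nppc and Npr1 both left out, edgeR called 0 of 5 against 1.29%. Of these 5, 3 were under the unadjusted level, Npr3, Nppb and Prkg2, against 19.6% of all genes, and the same 3 did not overlap between the groups, like 30.5% of all genes. For that pair limma-voom called 0 of the 5, against 1.62% of all genes, and DESeq2 called 2 (Npr3 and Prkg2), against 9.0%.

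In CKO-OLD against CKO-YOUNG, with Npr1 and Nppc left out, edgeR called 0 of the other members against 0.7% of all genes. Their smallest unadjusted p by edgeR was 0.0872 (Npr3), where 24.5% of all genes were under 0.05. DESeq2 called 0 of them, against 12.7% of all genes, and limma-voom called 0, against 1.53%. CON-YOUNG against YOUNG compares mice with and without Ocn-cre and Ai14. There edgeR called 0 of 6 members against 5.55% of all genes, with 1 under the unadjusted level (Npr3), against 23% of all genes. DESeq2 called 1 (Npr3, adjusted p = 0.039), against 12.8% of all genes, and limma-voom called 0, against 3.34%.

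The wider cGMP pathway was followed with 4 lists of 55 symbols in all, covering ligands and their processing, nitric oxide synthases and other cyclases, phosphodiesterases and export, and kinase substrates with cGMP-gated channels. Of the 55, 53 were in the count table (the other 2 are newer names of Mrvi1 and Lrmp, which are listed) and 44 passed the filter. In both knockout comparisons edgeR, DESeq2 and limma-voom called 0 of the 44. Among all genes edgeR called 0.127% in young and 0.00604% in old cells. DESeq2 called 230 of 16113 and 181 of 16434, and limma-voom 65 and 1 of 16566. By edgeR, 0 of the 44 in young and 4 in old cells had an unadjusted p under 0.05, beside 5.48% and 8.16% of all genes. Within library set 3 of the young cells, with 1 library a group, 4 of the 44 were called, in a fit that called 6.72% of all genes. The pathway genes had a median log2 difference of 0.0053 in young and 0.091 in old cells, beside -0.01 and -0.015 over all genes. The genes of smallest p in CKO-YOUNG against CON-YOUNG were Ostn, a bone-made peptide that binds the clearance receptor (0.0676 against 0.555 CPM, adjusted p = 0.992), Gucy1a2, a subunit of the nitric oxide receptor cyclase (5.39 against 2.07, adjusted p = 1), the phosphodiesterase gene Pde1c (0.574 against 0.237, adjusted p = 0.973) and the potassium channel gene Kcnma1 (1.73 against 2.9, adjusted p = 1). In CKO-OLD against OLD they were Mme, the peptidase neprilysin that degrades natriuretic peptides (36.5 against 77.8 CPM, adjusted p = 0.604), Gucy1a2 (10.4 against 3.42, adjusted p = 0.637), Pde1b (8.02 against 24, adjusted p = 0.503) and the channel gene Cnga3, which was at 0 counts in OLD (0.104 CPM in CKO-OLD, adjusted p = 0.566).

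Of the 44 pathway genes, 1 passed edgeR's test between CON-OLD-iBP and CKO-OLD, as did 1.29% of all genes. This was Pde6d, whose product carries prenylated proteins between membranes and which lies near Nppc in the gene table, with Cops7b between them. It was at 13.1, 16.9 and 9.04 CPM in CON-OLD-iBP and at 33.9, 27.3 and 28 in CKO-OLD, and fell by 1.19 on the log2 scale (SE 0.26, adjusted p = 0.0423). The call was lost without any 1 of the CKO-OLD libraries and without CON-OLD-iBP 1 or 3, and in fits of these 6 libraries alone, which called 4 other pathway genes, or 7 with a replicate block, beside 4.44% and 4.24% of all genes. The library set term gave 7 calls and set 3 alone 11, both with Pde6d, beside 12.3% and 18.7% of all genes. Against OLD, at 28.1, 31 and 32.3 CPM, the difference was -1.22 (SE 0.26, adjusted p = 0.0538). Against OLD, edgeR called 0 pathway genes, with 7 under the unadjusted level, beside 23.4% of all genes. There limma-voom called 0 and DESeq2 3, beside 0.278% and 13.6% of all genes. In CKO-OLD against CKO-YOUNG edgeR called 0, with 12 under the unadjusted level, beside 24.5% of all genes. There limma-voom called 2 and DESeq2 9, beside 1.53% and 12.7% of all genes. In OLD against YOUNG all 3 tools called 0 pathway genes, with 3 under the unadjusted level by edgeR, beside 3.34% of all genes. Among all genes edgeR and limma-voom called 0 of 16566 there and DESeq2 41 of 16434.

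In CON-YOUNG against YOUNG, 5 of the 44 pathway genes were lower in CON-YOUNG by edgeR's test and 0 were higher, beside 5.55% of all genes called, 634 lower and 285 higher. Rgs2, a regulator of G protein signalling that the cGMP kinase activates, was at 8.2 ± 3.17 CPM in CON-YOUNG and 115 ± 85.1 in YOUNG (log2 difference -3.81, adjusted p = 0.0141). Lrmp, which encodes a partner of inositol trisphosphate receptors, was at 0.966 ± 0.741 against 24.6 ± 16.7 (adjusted p = 0.0162), and Kcnma1 at 2.9 ± 1.1 against 11.3 ± 1.75 (adjusted p = 0.02). Corin, the protease that activates pro-atrial natriuretic peptide, was at 0 counts in all 3 CON-YOUNG libraries and at 0.201 ± 0.127 CPM in YOUNG (adjusted p = 0.0184). Pde1c was at 0.237 ± 0.168 CPM against 2.1 ± 1.2 (adjusted p = 0.0219). These 5 calls depend on the libraries and the fit: 0 were called in a fit of the 2 groups alone, with a replicate block (0.0% of all genes called) or without it (0.00665%), and 0 with a term for library set (0.0%). With limma-voom 3 were called, beside 3.34% of all genes, and with DESeq2 10, beside 12.8%. Without YOUNG 1, CON-YOUNG 1 or CON-YOUNG 2, 0 pathway genes and 0 of all genes were called; without CON-YOUNG 3, 13 were, beside 17.1% of all genes. Without YOUNG 2, 3 were called. The summed macrophage markers were 3650 to 14960 CPM in YOUNG and 195.2 to 452 in CON-YOUNG, and their part in these differences was not tested.

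For the ligands, likeness over the 18 libraries was highest with Trappc4 (r = 0.923) and Txndc9 (0.92) for Nppb and with Neu2 (0.919) and Mustn1 (0.918) for Nppc. Mustn1, a gene of muscle and skeletal tissue, was at a mean of 328 CPM in CON-OLD-iBP and at 15 to 41.1 CPM in the other group means. Neu2, a sialidase gene, was at 6.39 CPM in CON-OLD-iBP and at most 0.566 in the other group means. These 2 share with Nppc that CON-OLD-iBP was the highest group.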

How the data were processed

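RNA was measured in 18 libraries; 8 CUT&Tag samples were not used. The deposited table holds the authors' counts for each gene symbol, whole numbers that are not normalized, judged by their values. Per the submitters' processing notes, FastQC, Trim Galore, HISAT2 and the mm39 build were used. Versions, counting program, annotation and strand setting: not given in the sources used here, so overlapping, antisense and near-identical genes could not be told apart. Of 26264 symbols, 24964 matched a table of gene names.

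Libraries were grouped by title. From the counts, genes were kept by filterByExpr (minimum count 10, minimum total 15; 16566 genes), scaled by TMM and tested two-sided by the quasi-likelihood F test of edgeR (robust fit, 1 coefficient per group over 18 libraries, residual df 12). P-values were adjusted by Benjamini-Hochberg over all genes at a threshold of 0.05; called means an adjusted p under it. Adjusted p-values are from this test unless another tool is named. The test was checked on counts simulated with the same spread for every gene and no library sets, so the check does not cover these features of the data. Alternatives were DESeq2, limma-voom, DESeq2's size factors, no filter, a replicate block, a library set term, 1 coefficient per group and set, and leaving out each library. A fit of the compared groups alone without a block was added after seeing the data. Replicate numbers come from the titles. Libraries with the same number deviated together between CON-YOUNG and CKO-YOUNG (correlation 0.193 to 0.305) and between YOUNG and CON-YOUNG (0.146 to 0.31). Only there was every pair above 0.1. In YOUNG, CON-YOUNG and CKO-YOUNG the library sets divide the replicate numbers alike, so these correlations cannot tell pairing from a shared library set. The test over 18 libraries has no term for pairing.

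The members, lists and library sets were chosen with earlier results of these data known. All members are named; of the pathway lists, up to 3 called genes per list and comparison, or the gene of smallest p in the knockout comparisons. Likeness used log2 CPM with a prior count of 2, leaving out predicted symbols, Xist and Y-linked genes. Promoter windows come from a RefSeq table of GRCm38.p6, in which 6 of 7 members had an entry. The fits used edgeR 4.0.16, DESeq2 1.42.0 and limma 3.58.1 in R 4.3.3, and the plots matplotlib 3.10.9 in Python 3.11.15.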

Additional observations from a re-analysis of the deposited data

How the results depend on the processing

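In the 2 knockout comparisons the log2 difference of Npr1 kept its direction under every alternative run, at 5.18 to 5.97 in CKO-YOUNG against CON-YOUNG (5.97 within library set 3) and 3.66 to 4.16 in CKO-OLD against OLD; leaving out each library gave 5.21 to 5.62 and 3.66 to 4.16. Between CON-OLD-iBP and CKO-OLD it was -4.19, and -6.58 without CON-OLD-iBP 2. The count of members called, with Npr1 and Nppc left out as above, was 0 by edgeR in all 9 comparisons. It was higher under some alternatives, though with limma-voom it stayed at 0. With DESeq2 it was 1 in CON-YOUNG against YOUNG, beside 12.8% of all genes, and 2 in CON-OLD-iBP against CKO-OLD, beside 9.0%. The replicate block gave 2 in CON-OLD-iBP against CKO-OLD, beside 4.24% of all genes. The fit of the compared groups alone without a block also gave 2 there, beside 4.44%. The block changed no other count of members. The library set term gave 2 in CON-OLD-iBP against CKO-OLD, beside 12.3% of all genes. Within library set 3 the count was 2 in CON-OLD-iBP against CKO-OLD, beside 18.7% of all genes. The other comparisons within set 3 leave 1 library in a group, so no count is given for them here. Leaving out each library gave 0 to 1 in CON-YOUNG against YOUNG and 0 elsewhere. The 1 call was Nppb without CON-YOUNG 3 (adjusted p = 0.0422 by edgeR), beside 17.1% of all genes. The cause was not tested. Of 962 alternative values of the 63 member differences, 65 were not of the same sign as in the fit over 18 libraries; for Prkg2 in CKO-YOUNG against CON-YOUNG these included 0.145 within library set 2, beside -3.85 within set 3. Few counts limit Nppb, Nppc and, outside the knockout groups, Npr1.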
